A study of Mus musculus with 18 samples.

Results

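Of 33489 autosomal CpGs that could be compared between genotypes in single mouse oocytes, 73 were methylated in Sall4 knockout oocytes and almost unmethylated in wild-type oocytes. The members were chosen by their methylation level. Each had at least 5 reads in at least 3 wild-type and 3 knockout oocytes, a mean level of at most 10% over the wild-type oocytes, and a mean of at least 50% over the knockout oocytes, of which 1 was left out of the rule. The level of a CpG in an oocyte is the share of its reads that are methylated. The 73 sites were 0.218% of the comparable CpGs and 0.54% of the 13509 comparable CpGs with a wild-type mean of at most 10%. In all, 1207879 CpGs were listed in at least 1 library. The same rule with the genotypes exchanged found 663 sites, 1.98% of the comparable CpGs and 4.06% of the 16336 with a knockout mean of at most 10%, and these wild-type-only sites serve as the yardstick. Since the levels chose both classes, the levels of the genotypes at these sites are a description.

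Methylation was read by reduced representation bisulfite sequencing, in which MspI fragments are bisulfite converted so that unmethylated cytosines are read as thymines. The 18 libraries are single oocytes from secondary follicles (SF; 7 wild type, WT, and 5 knockout, KO) and early antral follicles (EAF; 4 WT and 2 KO). All females carried floxed Sall4 alleles (Sall4fl/fl). The knockouts also carried Zp3-Cre, a recombinase driven by a zona pellucida promoter that switches on as oocytes grow, and the wild-type oocytes came from Sall4fl/fl females. The labels give 2 postnatal ages, 12.5 and 17.5 days, without tying an age to a stage. They name no animal, so the oocytes of a group may share a mother and each group counts as 1 sample. No test between genotypes or stages was made for this reason, and every SD and range below describes oocytes. The loss of Sall4 in the oocytes labelled knockout was not checked here.

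Mouse oocytes begin growth with most of their DNA unmethylated. During growth DNMT3A and its cofactor DNMT3L add methyl groups, mainly across transcribed regions, while most CpG islands stay unmethylated and a few become maternal imprints. An oocyte of a growing follicle is therefore a snapshot of a process that runs at a different pace in each cell. SALL4 is a zinc finger transcription factor expressed in oocytes and embryonic cells.

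Read counts summed over CpGs ran from 464501 to 3665846 in the SF WT oocytes, from 3688890 to 6518646 in SF KO, from 982829 to 1903629 in EAF WT, and were 942232 and 4161741 in EAF KO. Depth therefore differed with genotype at the SF stage, and its part in the results was not tested. SF KO replicate 1 stood apart. At comparable CpGs low in wild type its mean level was 15.9%, against 3.69% to 5.67% in the other 6 KO oocytes. The rule left it out, so it serves as an oocyte that chose nothing. Deposited positions are of the mouse build mm9, and genes at the sites were not analysed here.

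The sites with the most even knockout methylation were few. In 5 of the 73, every knockout oocyte of the rule with enough reads was at 50% or above. On chromosome 2 at 111893999, SF KO replicates 2, 4 and 5 had 6 of 6, 15 of 15 and 12 of 12 reads methylated. There SF WT replicate 4 and EAF WT replicates 2 and 4 had 0 of 7, 0 of 5 and 0 of 8. At chromosome 5 position 16608771, SF KO replicates 2, 3 and 4 had 72 of 72, 92 of 95 and 6 of 6 methylated reads, while SF KO replicate 1 had 0 of 32. The wild-type readings there were 0 of 6 in SF WT replicate 1, 0 of 22 in SF WT replicate 2 and 0 of 6 in EAF WT replicate 2. The knockout readings at this CpG thus ran from no methylated read to all reads methylated once the oocyte outside the rule was counted.

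Another pair of these 5 sites lay near each other on chromosome 3. At 93011698, 5 knockout oocytes were read, at 53.8% in SF KO replicate 5, 66.7% in SF KO replicate 2, 70% in EAF KO replicate 2, and 100% in SF KO replicates 3 and 4. SF WT replicates 5 and 7 and EAF WT replicate 4 had no methylated read among 7 each. At 93012868 the knockout readings ran from 50% to 100% in 4 oocytes, and the wild-type readings were 0 of 7, 0 of 5 and 0 of 9. The last of the 5 sites, on chromosome 17 at 39983123, had 4 of 7, 40 of 41 and 38 of 46 methylated reads in SF KO replicates 2, 3 and 4. SF KO replicate 1 had 38 of 51 there, EAF WT replicate 4 had 0 of 157, SF WT replicate 4 had 0 of 5 and SF WT replicate 2 had 1 of 6.

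The rule did not use wild-type oocytes with under 5 reads, and at each of these 5 sites at least 1 such oocyte had methylated reads. SF WT replicate 1 had 3 of 3 at 111893999 and 1 of 3 at 39983123. SF WT replicate 4 had 4 of 4 at 93011698 and 2 of 2 at 93012868, and SF WT replicate 3 had 2 of 2 at 93011698. EAF WT replicate 4 had 1 of 1 at 16608771.

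Most members mixed methylated and unmethylated knockout readings. Most readings rested on a single strand, as given below, so a reading need not show the state of every copy in its oocyte. Whether readings differed because cells differed was not tested. The 6 knockout oocytes of the rule gave 268 readings at the 73 sites. Of these, 109 (40.7%) reached 90% or more, 98 (36.6%) fell between 10% and 90%, and 61 (22.8%) did not exceed 10%. At 52 sites (71.2%) at least 1 knockout oocyte read was at 10% or below. The usual pattern was 3 knockout oocytes read with 2 of them at 50% or above, at 33 sites. The 280 wild-type readings had a mean of 3.03%, 245 of them were at 10% or below, and the highest was 47.1%. At 43 sites no wild-type oocyte read exceeded 10%.

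The wild-type-only sites were more uniform in the genotype that defines them. Their 2351 wild-type readings were at 90% or above in 66.5%, between 10% and 90% in 14.3% and at 10% or below in 19.2%. At 368 of the 663 sites (55.5%) at least 1 wild-type oocyte read was at 10% or below, so mixtures were common in this class too. At 224 of the 663 (33.8%) every wild-type oocyte read was at 50% or above, against 6.85% for the knockout-only sites.

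**Figure D1:**
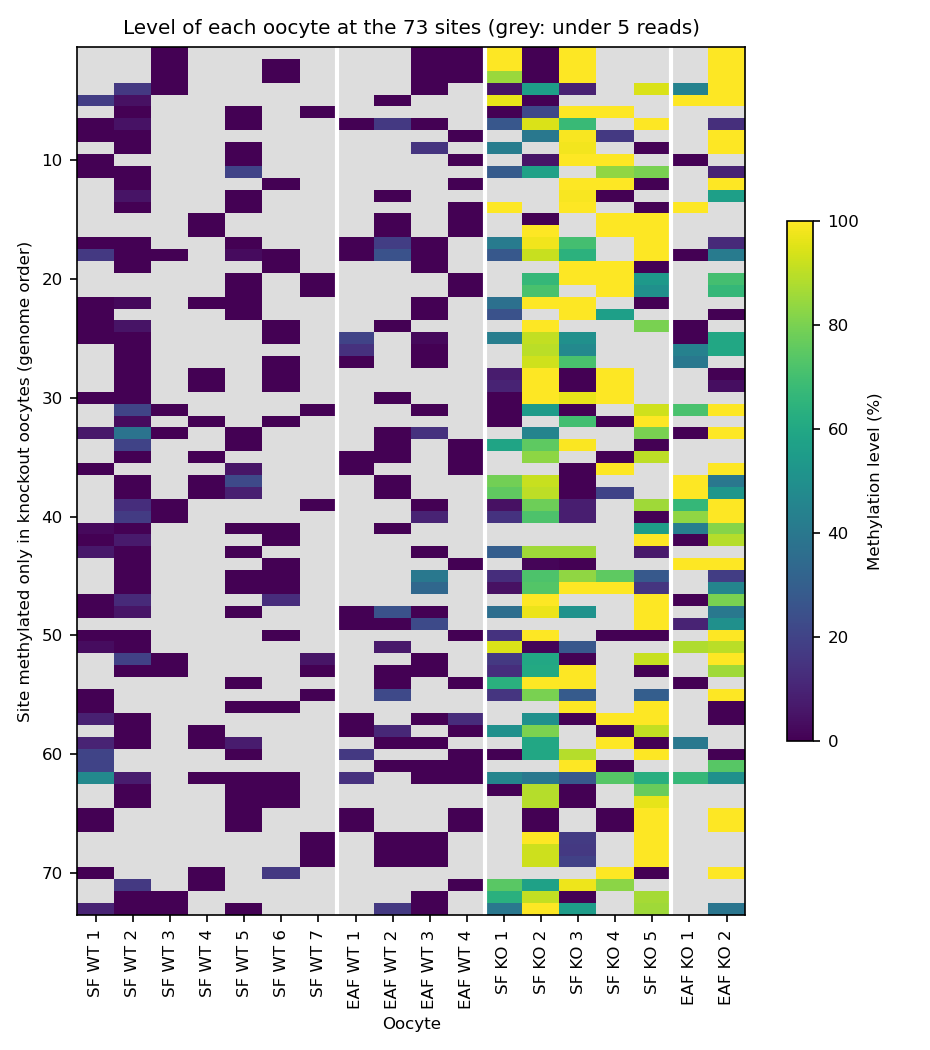
Methylation level (colour, 0% to 100%) of each of the 73 knockout-only sites (rows, in genome order) in each of the 18 oocytes (columns, by group); grey marks a site with under 5 reads in that oocyte. The knockout columns mix readings near 100% with readings near 0%, and SF KO 1 was not used to choose the sites.

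**Figure D2:**
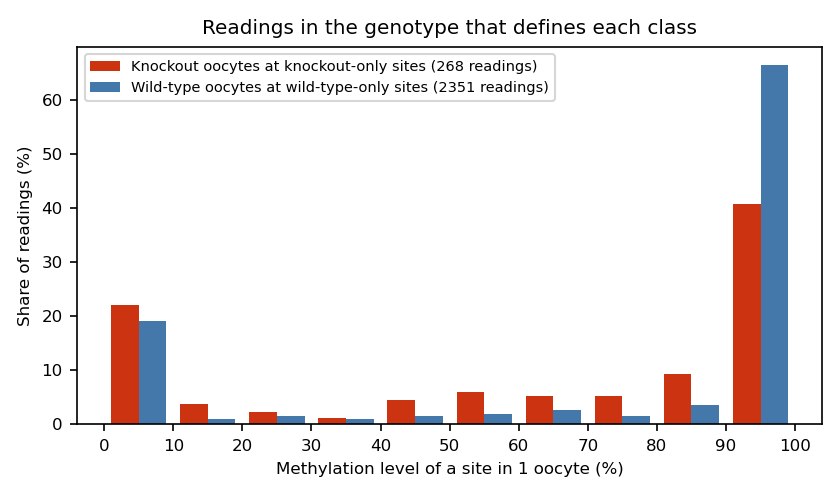
Share of readings (vertical axis, %) by methylation level in bins of 10 points (horizontal axis, %), for the 6 knockout oocytes of the rule at knockout-only sites and the 11 wild-type oocytes at wild-type-only sites. The bin nearest 100% holds more of the wild-type readings, and the bins between hold more of the knockout ones.

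Thin coverage was common among the members. Of the 73 sites, 49.3% were read in exactly 3 knockout oocytes, the fewest the rule allows, and 53.4% in exactly 3 wild-type oocytes. Over all comparable CpGs these shares were 28.6% and 28.4%, and over the comparable CpGs low in wild type 48.5% and 40.5%. The wild-type-only sites were read in fewer oocytes still, with shares of 73.2% and 63.3%, at median depths of 17 reads in knockout and 12 in wild type. The median depth of a reading at the sites was 14 reads in knockout and 10 in wild type, against 24 and 15 at the comparable CpGs low in wild type. At 5 reads, the exact (Clopper-Pearson) 95% interval of a level of 0% reaches 52.2% and that of 100% starts at 47.8%. At 20 reads these bounds are 16.8% and 83.2%. PCR copies are not independent molecules, so these intervals cover counting error only. Coverage moved with the class, and its part in the count was not tested.

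The count was smaller than its yardstick under every setting tried, but the size of the gap was not stable. There were 9.08 times as many wild-type-only as knockout-only sites, and this ratio ran from 1.82 to 27.5 over 27 settings. The 73 sites were 2.75% of the comparable CpGs with a knockout mean of at least 50%, and the 663 were 11.3% of those with a wild-type mean of at least 50%. Asking for at least 5 oocytes per genotype left 3 knockout-only and 6 wild-type-only sites of 14784 comparable CpGs. Without SF KO replicate 2 the wild-type-only count fell to 338 and without SF KO replicate 5 to 361, while the knockout-only counts were 56 and 60. The comparable CpGs then numbered 27469 and 28208.

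Levels at a member just inside and just outside the limits were close. The site on chromosome 11 at 12029735 had a knockout mean of 50% and entered, while a CpG on chromosome 15 at 103241794 had 49.99% and did not. The wild-type mean was 10% at the member on chromosome 7 at 68327712 and 10.4% at the excluded CpG on chromosome 13 at 37259678. Within 5 points of the knockout limit lay 17 members and 18 CpGs that missed it.

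SF KO replicate 1, the oocyte that chose nothing, read 42 of the 73 sites with a mean of 37.7%. It was at 50% or above at 13 of them, or 31.0% (exact 95% interval 17.6% to 47.1%, over sites that are not all independent). The background in the same oocyte was 910 of 8683 comparable CpGs low in wild type, or 10.5% (9.84% to 11.1%). It was likewise at 30.4% over the wild-type-only sites, against 18.5% at all comparable CpGs low in the other knockout oocytes. Its level was thus above its own background at both classes. The backgrounds were not matched to the sites in CpG density. The CpGs low in wild type had a median of 12 CpGs within 100 bp on either side, against 7 at the knockout-only sites.

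To read each remaining oocyte at sites it had not helped to choose, the rule was applied again without it. Held-out knockout oocytes had a mean of 31.4% ± 8.17 (SD, n = 7 oocytes, SF KO replicate 1 included) at the knockout-only sites so found, and held-out wild-type oocytes 20.4% ± 13.9 (SD, n = 11 oocytes). Without SF KO replicate 1 the knockout mean was 30.3% ± 8.42 (SD, n = 6 oocytes). The values of the genotypes overlapped widely. They ran from 18.1% in EAF KO replicate 1 to 40.0% in SF KO replicate 2, and from 0% in SF WT replicate 4, with 7 sites read, to 42.9% in SF WT replicate 3, with 14. SF WT replicate 1 read 35 such sites at 42.0%, above every knockout oocyte.

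Both genotypes were above their base level, the mean at all comparable CpGs low in the remaining wild-type oocytes. That base was 7.42% over the knockout oocytes and 5.80% over the wild-type oocytes, and it was not matched to the sites in CpG density. Wild-type oocytes that took no part in the choice were above their base in 9 of 11 cases, and knockout oocytes in 7 of 7. At wild-type-only sites the held-out oocytes were further apart, at 54.4% ± 15.3 (SD, n = 11 oocytes) in wild type and 17.4% ± 8.93 (SD, n = 7 oocytes) in knockout. The ranges there were 20.7% to 75% and 4.78% to 30.4%, and they overlapped because SF WT replicate 3 lay below SF KO replicates 1 and 3 and EAF KO replicate 2.

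**Figure D3:**
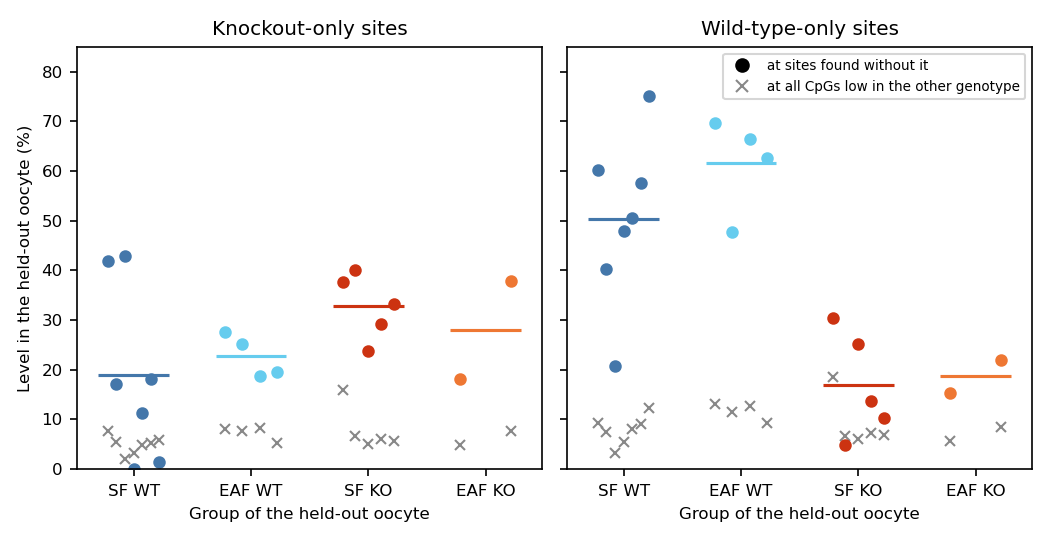
Methylation level (%) of each oocyte at the knockout-only (left) and wild-type-only (right) sites the rule finds without it (points, with lines at group means). Crosses give the level of the same oocyte at all comparable CpGs low in the remaining wild-type oocytes (left) or knockout oocytes (right). The other genotype named in the legend is the one that is low in the class, whichever the genotype of the oocyte. On the left the groups overlap, with wild-type oocytes from 0% to 42.9% and knockout oocytes from 18.1% to 40.0%; on the right most wild-type oocytes lie above the knockout ones.

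Readings of 1 to 4 reads gave a second measure that the rule did not use, looked at after the sites above were seen. Wild-type oocytes had 183 such readings at 64 of the 73 sites, with 79 of 365 reads methylated and a mean level of 23.1%. The 6 knockout oocytes of the rule had 82, with 58 of 178 reads methylated and a mean of 29.9%. At comparable CpGs low in wild type the means of such readings were 7.38% and 5.34%. At the sites called knockout-only, the shallow readings thus put wild type nearer to knockout than to its own base level. At the wild-type-only sites such readings averaged 49.4% over the wild-type oocytes and 18.0% over the knockout oocytes.

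The stages gave another view. When the rule was applied to SF oocytes alone it found 38 knockout-only sites, 20 of them among the 73, and 29 were read in EAF oocytes of both genotypes. There the mean was 35.9% in EAF KO and 30.9% in EAF WT, with the knockout higher at 13 sites, the wild type at 15 and 1 equal. With EAF oocytes alone the rule asked for 2 knockout oocytes in place of 3, since there are no more. It found 22 sites, 1 of them among the 73, and the 20 read at the SF stage had 20.4% in knockout and 17.3% in wild type. With at least 1 oocyte of each genotype read in the other stage, no site of the EAF class met both level limits in SF, and 3 of the SF class met them in EAF. For wild-type-only sites the direction carried over: those set in SF had 44.7% in EAF WT and 20.6% in EAF KO, and those set in EAF had 43.7% in SF WT and 15.4% in SF KO.

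Within the 73, no steady stage difference was seen. The 55 members read in knockout oocytes of both stages had a mean of 60.9% in SF KO and 57.6% in EAF KO. Of these, 37 were read in only 1 EAF KO oocyte and 18 in both. With EAF KO replicate 2 left out of the rule, 19 sites were read in both stages. The rule set a limit on the mean over both stages, so the stage levels at a site are not free of it. The EAF minus SF difference was -3.25 points with an SD of 56.9 points between sites, and 28 sites were higher in EAF and 27 lower. It changed sign in 5 alternatives, among them 14.1 points with at least 10 reads and 7.47 points without EAF KO replicate 1. At 19 sites both stages were at 50% or above, at 23 the SF stage alone and at 13 the EAF stage alone. A further 18 members had no EAF KO reading. The wild-type level at the members was 2.62% in SF and 3.45% in EAF. At the wild-type-only sites, wild-type oocytes went from 64.7% to 87.7% over 524 sites.

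The sites were scattered. They fell into 62 runs, a run being members at most 200 bp apart, and 53 of the 73 (72.6%) stood alone. There were 7 runs of 2 and 2 runs of 3 sites. Of the 663 wild-type-only sites 32.0% stood alone, 80 runs held 3 or more and the longest held 8. The members of a run can share reads and are not independent. Chromosomes 2 and 6 held 9 members each, of 696 and 1020 comparable CpGs low in wild type, against 73 of 13509 over all autosomes. Chromosomes 13, 14 and 18 held none of their 858, 504 and 392 comparable CpGs low in wild type, which allows shares of up to 0.350%, 0.595% and 0.765%.

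One run of 3 members lay on chromosome 1 at 18068255, 18068257 and 18068326, and its readings were nearly all-or-none. SF KO replicate 3 had 19 of 19, 20 of 20 and 20 of 20 methylated reads, and EAF KO replicate 2 had 13 of 13, 12 of 12 and 13 of 13. SF KO replicate 2 had 0 of 21, 0 of 19 and 0 of 20. SF KO replicate 1, outside the rule, had 49 of 49, 68 of 68 and 56 of 66. The wild-type readings, of SF WT replicates 3 and 6 and EAF WT replicates 3 and 4, were all 0, on 6 to 16 reads. At this run 3 of 4 knockout oocytes with enough reads were methylated and none of the wild-type ones, while SF WT replicate 2, with 1 read at each site, had a methylated read at the first 2.

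The other run of 3 lay on chromosome 16 at 73553826, 73553843 and 73553845. SF KO replicate 2 had 16 of 16, 12 of 13 and 12 of 13 methylated reads, SF KO replicate 5 had 14 of 14, 11 of 11 and 9 of 9, and SF KO replicate 3 had 5 of 29, 5 of 30 and 6 of 31. SF WT replicate 7 and EAF WT replicates 2 and 3 had no methylated read on 5 to 10 reads, and SF WT replicate 5 had 1 of 1 at all 3 sites. The longest wild-type-only runs had 8 sites each, on chromosome 15 from 35047196 to 35047476 (85.7% in wild type, 0.208% in knockout), on chromosome 18 from 53633196 to 53633320 (75% and 0.347%) and on chromosome 14 from 71175282 to 71175409 (96.4% and 0%).

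The CpGs around a member often shared its state in part. All 73 had at least 1 other comparable CpG within 200 bp, 297 in all, with a mean of 20.5% in wild type and 30.7% in knockout. Of these 64 were at 50% or above in knockout and 69 at 10% or below, and the knockout was higher at 180. Over all 33489 comparable CpGs, 2654 were at 50% or above in knockout and 16336 at 10% or below. Neighbours can share reads with members chosen for high knockout and low wild-type levels. Part of their likeness to the member can thus come from the choice, and this was not tested. Within single oocytes, neighbours were all CpGs outside the class within 200 bp with at least 5 reads in that oocyte, comparable or not. In a knockout oocyte with the member at 50% or above, its neighbours averaged 41.8% (178 readings). In one with the member at 10% or below they averaged 13.8% (61 readings). At wild-type-only sites these values in wild-type oocytes were 70.4% and 33.5%. The neighbours of a methylated member were thus less methylated than those of a methylated wild-type-only site.

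Most readings rested on a single strand. In 194 of the 268 knockout readings (72.4%) all reads came from 1 strand, against 1923 of 2351 wild-type readings (81.8%) at the wild-type-only sites. In the 33 readings with at least 3 reads on each strand, at 23 sites, the strands differed by 25.7 points on average, and in 8 by more than 50 points. At the wild-type-only sites the average was 23.9 points over 206 readings.

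The members lay in sequence of moderate CpG density, a measure the rule did not use. The median number of CpGs within 100 bp on either side, the site included, was 7 (interquartile range 5 to 11), against 10 over all comparable CpGs, 12 over those low in wild type and 6 at the wild-type-only sites. Of the members 40 (54.8%) had 5 to 9 CpGs and 1 had 20 or more. Among comparable CpGs low in wild type, the share that was knockout-only was 1.53% with 2 to 4 CpGs, 0.943% with 5 to 9, 0.341% with 10 to 19 and 0.0395% with 20 or more. The wild-type-only share of CpGs low in knockout ran in the same order over these bins, at 13.6%, 5.69%, 2.40% and 0.0775%. For CpGs with no other listed within 100 bp, the order did not hold in the wild-type-only class and could not be judged in the knockout-only class. Of these, 0 of 83 were knockout-only, which allows a share of up to 3.61%, and 19 of 607 (3.13%) were wild-type-only. The densest CpGs, which include CpG islands, were thus nearly absent from both classes.

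**Figure D4:**
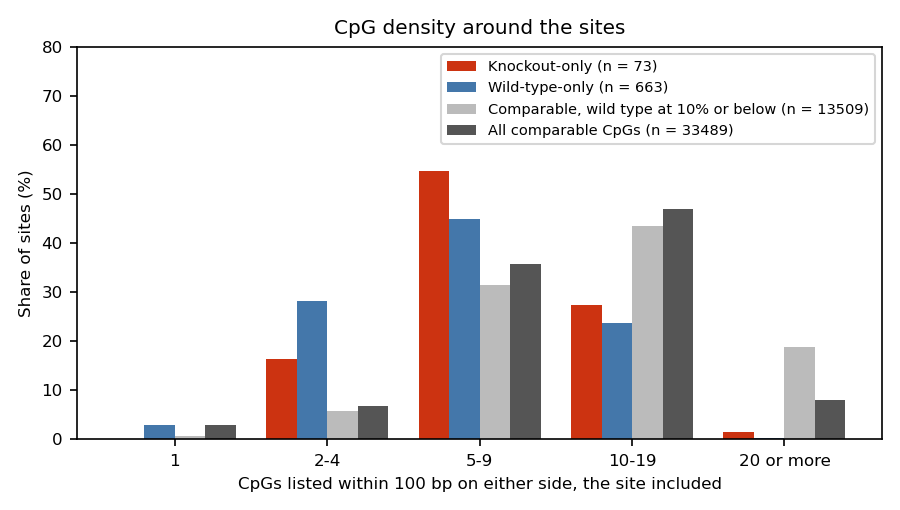
Share of sites (vertical axis, %) by the number of CpGs listed within 100 bp on either side (horizontal axis), for the knockout-only and wild-type-only sites, all comparable CpGs low in wild type and all comparable CpGs. Both classes peak at 5 to 9 CpGs, with 54.8% of the knockout-only sites, and hold few sites with 20 or more.

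Several members on different chromosomes had nearly the same profile over the oocytes. Among 112 pairs of members in different runs with at least 8 oocytes in common, 22 (19.6%) differed by at most 10 points on average, 19 of them across chromosomes. At the wild-type-only sites this held for 69 of 769 pairs (8.97%). This measure was chosen after the profiles were seen. The rule itself holds wild-type oocytes low at every member, and knockout oocytes low at every wild-type-only site. Part of the likeness was thus fixed by the rule in each class, and the difference between these shares is not a result about the members. Linked by alike pairs, 18 runs with 20 members formed 6 families, and counting each family once left 50 runs. The members on chromosome 6 at 62966478 and chromosome 10 at 15355041 were in no alike pair and entered with their run. The former had 0 of 8 methylated reads in SF KO replicate 5, where its run partner at 62966468 had 6 of 7. The latter had 7 of 7 in SF KO replicate 3 and 0 of 13 in SF KO replicate 5, where its run partner at 15354994 had 0 of 7 and 11 of 12.

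The largest family had 6 loci, at chromosome 1 position 142820577, chromosome 3 positions 8451879 and 61524050, chromosome 4 position 56448207, chromosome 8 position 88902827 and chromosome 19 position 49006868. At all 6, SF KO replicate 2 was at 90.9% to 100%, SF KO replicate 3 at 50% to 70.3% and SF KO replicate 1 at 27.3% to 42.9%. SF KO replicate 5 was at 85.7% to 100% at the 5 it read, and EAF KO replicate 2 at 11.8% to 60.0% at all 6. EAF KO replicate 1 was at 0% at the 2 loci it read. Among wild-type oocytes EAF WT replicate 2 was at 16.7% to 25% and SF WT replicate 2 at 0% to 5.56%. In SF KO replicate 2 these rest on 11 to 46 reads per locus.

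**Figure D5:**
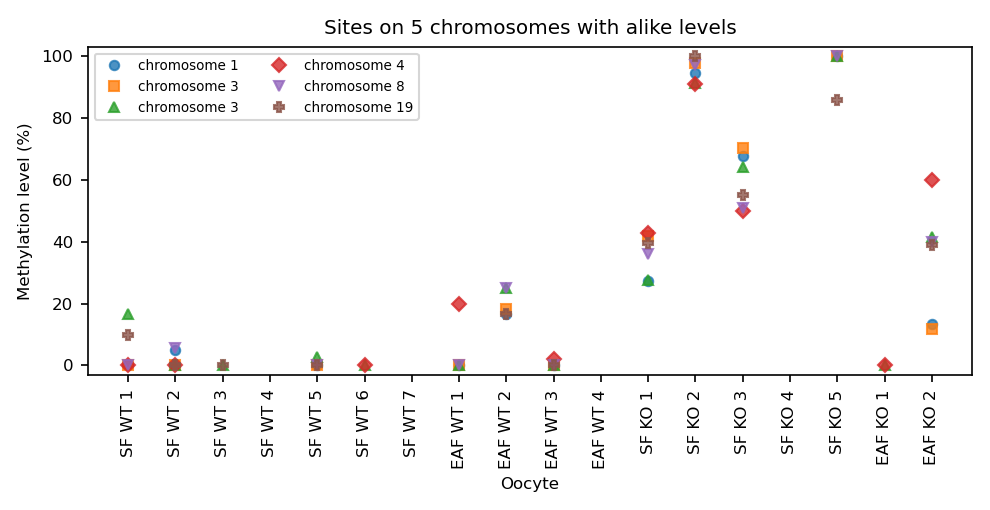
Methylation level (vertical axis, %) in each of the 18 oocytes (horizontal axis) at 6 knockout-only sites on 5 chromosomes, 1 symbol per site; oocytes without symbols have under 5 reads at all 6. In SF KO 2 all lie between 90.9% and 100%, and in SF KO 3 between 50% and 70.3%.

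Most members of the families shared a spacing of CpGs, found after their profiles were seen. Going from the first CpG, others stood 7, 10 and 47 bp further on, in either orientation, with no other listed CpG between. This spacing occurred 2203 times among the listed positions, and in 40.8% of cases a CpG stood again at 212 bp, in 42.0% at 219 bp and in 43.4% at 222 bp. It is defined by distances alone, and whether all occurrences are copies of 1 sequence was not tested. Of the 73 members 18 (24.7%) lay at such a spacing, on 9 chromosomes, 15 of them in the families, counting those that entered with their run. This compares with 13.2% of all comparable CpGs, 10.1% of those low in wild type and 2.71% of the wild-type-only sites. The spacing was picked because members shared it, so its higher share among them is a description and no independent finding. Of the largest family 5 of the 6 sites held the same place in the spacing, at 7 bp.

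No genome of the deposited build was used, so the sequence of the members was not read. The spacing was looked for in promoter windows of RefSeq (build GRCm38.p6, 250 bases before to 50 after each gene start), and 10 of 32851 windows, of 9 genes, held it (0.0304%). Whether these windows are among the deposited positions is not known. Those of Gm35240 (chr12:77553703-77553752, minus strand) and Gm52195 (chr15:103410634-103410683, plus strand) had the same 50 bases, shown to make the spacing visible. Capitals mark the CpGs, and the stretch opens with the MspI site ccgg.

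Gm35240 and Gm52195: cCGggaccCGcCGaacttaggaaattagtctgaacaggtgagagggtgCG

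The longer stretch at Gm35240 (chr12:77553491-77553752, minus strand, 262 bases) shows part of the spacing returning. The CpGs at 219 and 222 bp and the last one of the spacing come back, while the opening CpG at 212 bp, and with it a ccgg, is absent. Capitals again mark the CpGs, and it holds 13 of the 16 recurrent CpG places over this length.

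Gm35240: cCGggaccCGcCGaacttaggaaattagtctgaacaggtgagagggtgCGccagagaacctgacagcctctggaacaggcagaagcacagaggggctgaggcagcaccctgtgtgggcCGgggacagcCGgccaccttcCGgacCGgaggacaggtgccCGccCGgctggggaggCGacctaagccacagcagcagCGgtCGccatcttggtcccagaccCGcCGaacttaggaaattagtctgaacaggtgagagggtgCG

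All comparable CpGs at the spacing had a mean of 14.8% ± 4.03 (SD, n = 7 oocytes) in SF WT and 14.4% ± 2.50 (SD, n = 4 oocytes, without replicate 1) in SF KO. In EAF they had 15.3% ± 1.69 (SD, n = 4 oocytes) in wild type and 14.1% ± 5.04 (SD, n = 2 oocytes) in knockout. At the other comparable CpGs the EAF means were 31.6% ± 2.55 (SD, n = 4 oocytes) and 20.1% ± 2.81 (SD, n = 2 oocytes). Among CpGs low in wild type, 1.33% at the spacing and 0.453% elsewhere were knockout-only. The 1.33% counts the members that led to the spacing. The exchanged class went the other way, with 1.06% of CpGs low in knockout at the spacing and 4.41% elsewhere. At the spacing the classes were equal in size, with 18 sites each. Where CpGs lie in near-identical copies, reads can be placed at the wrong copy, and whether this happened at the members was not tested.

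Of the members outside the runs of 3, the one on chromosome 12 at 96487354 was read in the most oocytes, 14 of the rule. Its knockout levels were intermediate in every oocyte: 8 of 20, 5 of 18, 14 of 19 and 10 of 16 methylated reads in SF KO replicates 2 to 5, and 4 of 6 and 10 of 20 in EAF KO. SF KO replicate 1 had 15 of 33. SF WT replicate 1 had 8 of 17, within the knockout values, while SF WT replicate 2 and EAF WT replicate 1 had 1 of 13 and 1 of 7 and the other wild-type oocytes 0. The mean was 8.63% in wild type and 53.4% in knockout.

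The site on chromosome 3 at 61524050, a member of the largest family, was read in 13 oocytes of the rule. SF KO replicates 2, 3 and 5 had 32 of 35, 18 of 28 and 9 of 9 methylated reads, and EAF KO replicates 1 and 2 had 0 of 8 and 5 of 12. The wild-type oocytes ran from 0 to the 2 of 8 of EAF WT replicate 2, which exceeded EAF KO replicate 1. The other 4 family members among the widely read sites, on chromosomes 1, 3, 8 and 19, had knockout means of 68.9%, 70%, 72.0% and 69.9%. Their wild-type means were 3.61%, 3.03%, 5.09% and 4.44%.

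Other widely read members differed in which oocyte carried the methylation. On chromosome 11 at 48349496, SF KO replicate 4 had 122 of 122 methylated reads and SF KO replicate 5 had 0 of 10, and the remaining knockout readings were 3 of 5 and 2 of 5. Among the wild-type oocytes there, EAF WT replicate 3 had 0 of 37 and EAF WT replicate 2 had 0 of 14. On chromosome 11 at 12029735, SF KO replicates 4 and 5 had 7 of 7 and 6 of 6, SF KO replicate 2 had 20 of 40, and SF KO replicate 3 and EAF KO replicate 2 had 0 of 31 and 0 of 41. Of the 3 deepest knockout readings at that site 2 were unmethylated, and the fully methylated ones rested on 6 and 7 reads.

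On chromosome 5 at 96141028 the deepest wild-type reading was 34 of 89 in SF WT replicate 2, close to the 33 of 73 of SF KO replicate 2. The other knockout readings there were 4 of 5, 0 of 5 and 6 of 6. On chromosome 6 at 62966468, EAF KO replicate 2 had 13 of 13, SF KO replicate 2 had 21 of 27, SF KO replicate 5 had 6 of 7, EAF KO replicate 1 had 4 of 6 and SF KO replicate 3 had 1 of 12. The wild-type oocytes there had 3 of 23 in SF WT replicate 2 and 0 elsewhere, so that the wild-type readings lay above SF KO replicate 3 in that 1 oocyte.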

How the data were processed

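Per the labels' protocols, DNA of single oocytes was cut with MspI, bisulfite converted and amplified by PCR. BSMAP 2.89 and the build mm9 are named in the submitters' processing notes, and the authors' filters are not given in the sources at hand. Per the file headers, the deposited tables give for each CpG the count of reads and the count of methylated reads, in all and per strand. The deposited ratio is a fraction from 0 to 1, methylated over all reads.

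Levels were recomputed from the counts at 5 or more reads and averaged over oocytes, each weighted equally. The class rule, runs, density and held-out readings were run in Python 3.11.15 with numpy 2.4.6, pandas 2.3.3 and scipy 1.17.1, and were tested on simulated data. The members and lists were chosen with earlier results of these data known. The sites named are the runs of 3 or more members, the 10 other members read in the most oocytes, the 3 longest wild-type-only runs and the sites nearest each limit. The 5 sites with every knockout oocyte at 50% or above, and those of the families, were named after their values were seen. Alternatives changed the read minimum, oocyte minimum, weighting, limits, stages and oocytes. Positions are printed 1-based.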

Additional observations from a re-analysis of the deposited data

Results flagged for a closer look

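Among 12 sets of 4 to 7 oocytes, in values that an oocyte had not helped to choose, 2 held 1 value far from the rest by Dixon's gap over range. Chance alone gives about 1 in 20 for separate sets, and no animal is named for any oocyte. Both values came from the same oocyte, so they are not independent and cannot be set against that share. SF KO replicate 1 lay above the other 4 SF KO oocytes in its level at comparable CpGs low in wild type (15.9%) and in its level at those low in the remaining knockout oocytes (18.5%). With each oocyte held out, its 30.4% at the wild-type-only sites was not set apart from SF KO replicate 3 at 25.1%. On the X chromosome, which the rule leaves out, 6 of 1375 comparable CpGs (0.436%) were knockout-only and 25 (1.82%) wild-type-only.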

How the results depend on the processing

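The number of comparable CpGs changed with the setting, and with it the counts. The knockout-only and wild-type-only counts were 149 and 1574 of 53277 comparable CpGs with at least 3 reads, and 23 and 147 of 16727 with at least 10. They were 22 and 76 of 20042 with at least 4 oocytes per genotype, and 3 and 6 of 14784 with at least 5. They were 38 and 112 of 18585 in SF alone, and 22 and 40 of 10492 in EAF alone with 2 knockout oocytes enough. With the upper limit at 70% they were 11 and 302 of 33489. The knockout-only count was 147 with reads summed over oocytes, 118 with SF KO replicate 1 included and 119 with the lower limit at 20%, where the wild-type-only counts (763, 836 and 905) stayed within 1.5 times. The comparable CpGs numbered 40336 with SF KO replicate 1 included, and stayed at 33489 with reads summed or the lower limit changed. Leaving out 1 oocyte gave 53 to 78 and 338 to 661, with 27469 to 32553 comparable CpGs. The mean of SF KO replicate 1 was 36.7% with runs weighted equally. The stage difference became 14.1 points with at least 10 reads, and ran from -5.28 to 7.47 when 1 knockout oocyte was left out, with 2.52, 0.640, 5.00 and 7.47 points without SF KO replicates 2, 3, 5 and EAF KO replicate 1. Median density was 13 CpGs within 250 bp, by its wider window. The held-out means stayed within 1 SD under both alternatives, and the runs numbered 65, 59 and 50, the last with alike profiles counted once, chosen after seeing the data. Density from genome positions was not run. The cause of each change was not tested. No paired analysis was possible because genotypes and stages were not tested and oocytes share only a number.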
